A study of Mus musculus with 32 samples.

Results

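R-spondins are secreted proteins that strengthen Wnt signalling. They bind the receptors LGR4, LGR5 or LGR6 and the transmembrane ubiquitin ligases ZNRF3 and RNF43, which otherwise remove Frizzled receptors from the cell surface, so that a cell exposed to an R-spondin keeps more Frizzled and answers Wnt ligands more strongly. In fat, Wnt signalling through β-catenin is known for holding back the formation of adipocytes. The family described here comprises 9 genes: the ligands Rspo1, Rspo2, Rspo3 and Rspo4, the receptors Lgr4, Lgr5 and Lgr6, and the ligases Znrf3 and Rnf43. Members were all probes that carry one of these 9 gene names on the array and that are also in the deposited table of log2 values, which gave 11 of 19 probes and 6 of 9 genes, out of 24523 gene names in all that passed the same filter. The family was selected on Rspo4, whose level moved in opposite directions in the KO lines. The values of Rspo4 are therefore a description without a test, and the tests below are those of the other members.

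The data are 32 Agilent 1-colour arrays of RNA from brown adipose tissue, 8 in each of 4 groups. ChREBP, encoded by Mlxipl, is a transcription factor that responds to glucose and exists as the isoforms α and β. Total ChREBP KO mice are Mlxipl-null and lack both isoforms, ChREBPβ KO mice carry a CRISPR/Cas9 deletion of exon 1b, from which the β transcript starts, and each line was compared with its own WT group (littermates in the ChREBPβ line; the source of the total-line WT mice is not given in the sources used here). All were male C57BL6/J mice, fasted for 24 hours and then given food again for 18 hours together with 20% glucose in the drinking water. Age was not given in the sources used here. Both deletions are present in every cell of the animal. The ChREBPβ deletion had been established in more than 1 line in this strain, and which of them was hybridised is not given in the sources used here. The study's methods describe mice of several litters without tying arrays to litters, so p values measure the spread between these arrays.

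Per array, the share of spots well above background ranged from 64.4% to 71.1%, and within groups the median correlation of 2 arrays ranged from 0.990 to 0.995. Mlxipl was lower in both KO groups on its brightest probe, with mean log2 intensities of 13.68 in total ChREBP KO against 16.16 in its WT and of 14.85 in ChREBPβ KO against 16.35 (limma adjusted p 2.06e-24 and 7.47e-17). The mean log2 intensity of 6 markers of brown adipocytes lay between 14.62 and 16.03 on all arrays. Of these 6, 3 were called higher and 1 lower in total ChREBP KO, and 0 were called in ChREBPβ KO. In ChREBPβ-line WT 1 was higher and 3 were lower than in total-line WT. Markers of skeletal muscle stood apart between the lines. Their mean ranged from 13.23 to 16.45 over total-line arrays and from 6.67 to 12.38 in the ChREBPβ line, with all 8 markers lower in ChREBPβ-line WT than in total-line WT. Markers of liver ranged from 5.16 to 13.23 over single arrays, and 0 of 7 were called in any comparison. In bulk tissue, fewer cells of a type and less RNA per cell cannot be told apart.

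Of the ligands, Rspo4 was measured by probes A_55_P2163639 at chr2:151700345-151700404 and A_52_P187167 at chr2:151695643-151698787 (build mm9). The listed coordinates of the latter span 3145 bases for 60 bases of probe, so it crosses at least 1 splice junction and reads spliced transcript. Lgr6 was measured by A_52_P75777 at chr1:136880538-136880597 and by A_52_P616580 at chr1:136883782-136883841. A probe of each gene is shown, because Rspo4 and Lgr6 changed most and the probe defines which piece of the transcript was read. Both are copied 5′ to 3′ from the array files. The exon and UTR annotation of build mm9 was not used here.

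Rspo4, A_52_P187167: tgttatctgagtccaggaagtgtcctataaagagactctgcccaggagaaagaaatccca
Lgr6, A_52_P616580: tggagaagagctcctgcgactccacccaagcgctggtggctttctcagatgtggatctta

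The bases before the start of Rspo4 are shown because its level changed with loss of ChREBP, a factor known to bind paired E boxes. They are chr2:151842677-151842926 on the plus strand of build GRCm38.p6, from RefSeq, and capitals mark the E box CACGTG, which lies 108 to 103 bases before the start.

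Rspo4 promoter: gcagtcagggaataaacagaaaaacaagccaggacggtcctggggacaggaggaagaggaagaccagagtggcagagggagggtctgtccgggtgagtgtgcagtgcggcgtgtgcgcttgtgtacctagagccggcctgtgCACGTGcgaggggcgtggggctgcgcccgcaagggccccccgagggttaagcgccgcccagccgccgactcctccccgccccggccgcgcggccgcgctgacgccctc

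The RefSeq table held 6 promoters for 5 of the 9 genes, namely Rspo1, Rspo4, Lgr4, Lgr6 and Rnf43. CACGTG, which reads the same on both strands, was found in that of Rspo4 and in 0 of the other 5. Of all 32851 promoters, 6.02% held it in the 250 bases before the start. The strict carbohydrate response element, a pair of CACGTG boxes with 5 bases between them, overlaps the single motif by construction. It was in 0 of the 32851 windows, so its absence from the family promoters cannot set them apart from any other. CTTTGAT, a core motif of the TCF/LEF factors of the Wnt pathway searched on both strands, was in 0 of the 6 family promoters and in 3.21% of all. These matches describe letters in a window and not binding.

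Rspo4, the ligand that the family was selected on, was high in both WT groups, at background in total ChREBP KO and highest in ChREBPβ KO. On A_55_P2163639 the log2 intensity over the 8 arrays of total-line WT ran from 7.03 through a median of 7.40 to 8.16. In total ChREBP KO it ran from 4.29 through 4.38 to 4.62, and the probe was well above background on 0 of 8 arrays. In ChREBPβ-line WT it ran from 6.14 through 7.03 to 7.28, and in ChREBPβ KO from 7.22 through 8.27 to 9.28. The total-line groups did not overlap, whereas in the ChREBPβ line the lowest KO array, at 7.22, lay below the highest WT array, at 7.28, and the next KO array was at 7.31. Group means were 7.53 ± 0.39 (SD, n = 8), 4.40 ± 0.10, 6.88 ± 0.39 and 8.18 ± 0.70 in the same order, so the KO group of the ChREBPβ line also had the widest spread.

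The measured log2 difference of Rspo4 was -3.13 ± 0.21 (SE) in total ChREBP KO. As the probe was not well above background in that group, the fall is given as at least 7.62-fold under the main processing. It was measured on each array against its own signal or the dimmest signal of a probe still well above background, whichever was higher. The size of the fall depends on how background is handled: it was -6.15 (log2) with Agilent's processed intensity and -1.96 after normexp correction. The latter is smaller than the bound, which therefore holds for the main processing only. In ChREBPβ KO the log2 difference was 1.30 ± 0.21, or 2.46-fold, and all 8 KO arrays lay above the WT mean. Under the main processing, probe A_52_P187167 gave a fall of at least 3.68-fold in the total line (means 6.49 and 4.34) and a log2 difference of 1.12 ± 0.19 in ChREBPβ KO (means 6.09 and 7.21). Its log2 difference in total ChREBP KO was -4.78 with Agilent's processed intensity and -1.11 after normexp correction. The 2 probes followed each other over single arrays, with r = 0.898 within groups over 32 arrays. Total-line WT and ChREBPβ-line WT differed by -0.65 ± 0.21 on the brighter probe, with overlapping ranges.

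All 4 groups were spread over 4 wash batches. As a description of the same values, the difference of Rspo4 in ChREBPβ KO was 1.12 to 2.00 within batches. No difference per batch is given for total ChREBP KO, where the probe was not well above background. No list of markers of other cell types had a called gene in the ChREBPβ KO comparison, where 2.7% of all genes were called. Skeletal muscle markers had a median log2 difference of -0.678 there. The SD of their mean over arrays was 2.56 in WT and 1.86 in KO, and that of liver markers was 3.24 and 3.28. With such spread the lack of calls does not show equal composition, and its part in the Rspo4 difference was not tested. Of 24523 genes, 2 had measured means that fell at least 2-fold in the total line and rose at least 2-fold in the ChREBPβ line, Rspo4 and Espn, which encodes an actin-bundling protein, and 0 had the opposite combination. That count repeats the pattern on which Rspo4 was selected.

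**Figure D1:**
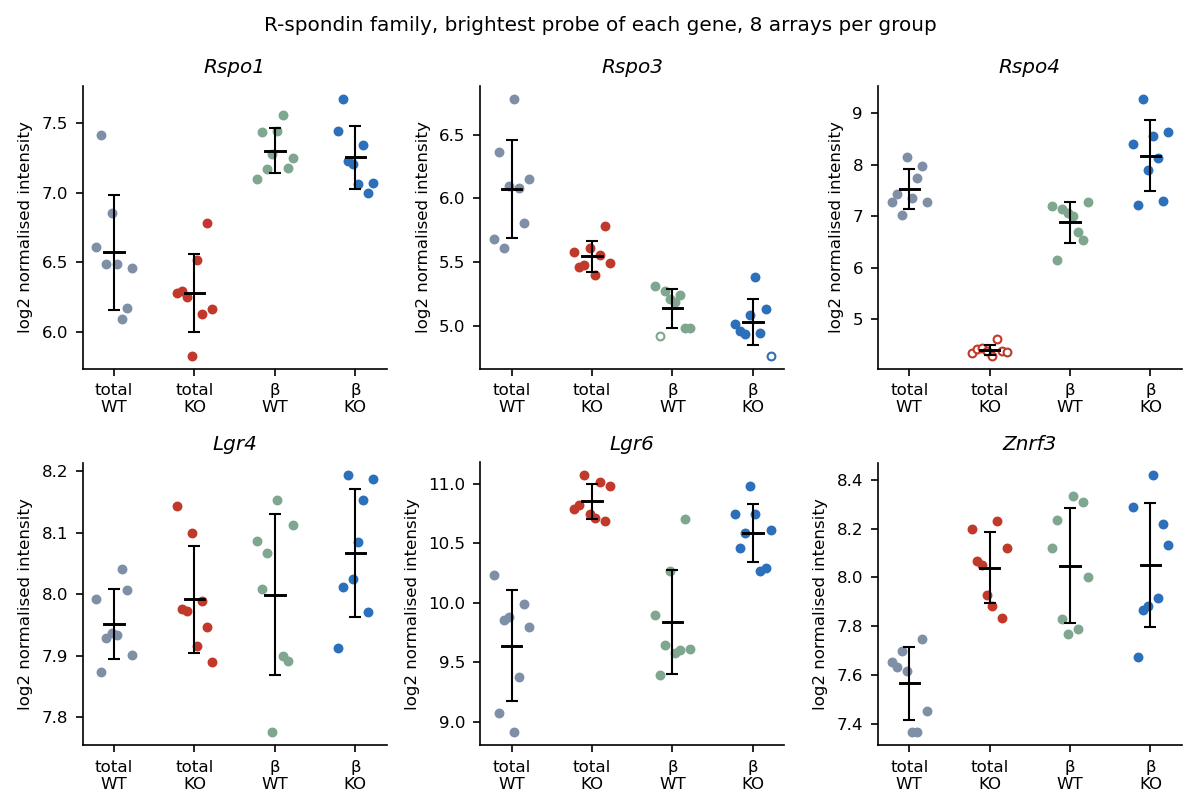
Log2 normalised intensity (y axis) of the brightest probe of each of the 6 measured genes on each of 8 arrays per group (x axis). Points are arrays, open where the probe was not well above background, and bars are means ± SD. All 8 total ChREBP KO arrays of Rspo4 are open and lie between 4.29 and 4.62, and Lgr6 is high in both KO groups.

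Among the genes whose brightest probes followed Rspo4 most closely over the 32 arrays were Ttll5 (r = 0.935), Pfkp (0.933), Espn (0.933) and Bmp8b (0.931), out of 16887 genes compared. PFKP is a glycolytic enzyme and BMP8B a secreted factor of brown fat. Within groups the correlations of these 4 were lower, from 0.159 for Espn to 0.470 for Ttll5, so that much of the likeness lay in the group means. Bmp8b had mean log2 intensities of 8.37 in total-line WT, 4.79 in total ChREBP KO, 8.25 in ChREBPβ-line WT and 8.77 in ChREBPβ KO. All 32 points share the 4 groups, and no test was made of these correlations.

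Of the 8 family genes other than Rspo4, 5 had a probe that passed the filter. In total ChREBP KO 3 of these were called by limma at an adjusted p under 0.05 on their brightest probe, Lgr6 and Znrf3 higher and Rspo3 lower, where 23.0% of all genes were called higher and 21.1% lower. In ChREBPβ KO 1 was called, Lgr6 (higher), against 1.37% of all genes called higher and 1.33% called lower. The median log2 difference of the 5 was 0.0398 in total ChREBP KO and 0.000585 in ChREBPβ KO, beside 0.0143 and -0.00298 over all genes. In total ChREBP KO 44.1% of all genes were called, and 3 of 5 genes are too few to be set apart from that share.

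Lgr6 encodes a receptor that binds R-spondins and marks stem cells in skin. It was higher in both KO lines on both of its probes. On A_52_P75777 the log2 intensity ran from 8.91 through a median of 9.83 to 10.24 in total-line WT and from 10.69 through 10.81 to 11.07 in total ChREBP KO. The ranges did not overlap, and the log2 difference was 1.22 ± 0.17 (SE; 2.32-fold; limma adjusted p 4.33e-07). In ChREBPβ-line WT it ran from 9.39 through 9.63 to 10.71 and in ChREBPβ KO from 10.26 through 10.60 to 10.98, where the highest WT array lay above 5 of 8 KO arrays and the next highest, at 10.27, above 1. There the log2 difference was 0.75 ± 0.17 (1.68-fold; limma adjusted p 0.00929), with 8 of 8 KO arrays above the WT mean.

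Probe A_52_P616580 gave 1.34 ± 0.15 (limma adjusted p 9.75e-09) in the total line and 0.63 ± 0.15 (limma adjusted p 0.0163) in ChREBPβ KO. The difference between the KO effects of Lgr6 was -0.47 on A_52_P75777 (95% interval -0.95 to 0.02; limma adjusted p 0.16) and -0.71 on A_52_P616580 (-1.14 to -0.27; limma adjusted p 0.0141), so that a smaller effect in ChREBPβ KO was called on 1 of 2 probes. The WT groups of the lines differed by 0.20 and 0.09 on these probes, neither called. Within wash batches the Lgr6 difference in total ChREBP KO lay between 0.89 and 1.72 on A_52_P75777. In ChREBPβ KO it was 1.47, 0.59, -0.15 and 0.67, above 0 in 3 of 4 batches, where each batch held 1 to 3 arrays per group. With slide as a fixed block the ChREBPβ call was lost on both probes. The difference was then 0.63 on A_52_P75777 (limma adjusted p 0.288) and 0.47 on A_52_P616580 (limma adjusted p 0.322). On A_52_P616580 the call was also lost with wash batch as a fixed block (0.54, limma adjusted p 0.0595). The same held with only the 2 groups of the contrast (0.63, limma adjusted p 0.0599).

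**Figure D2:**
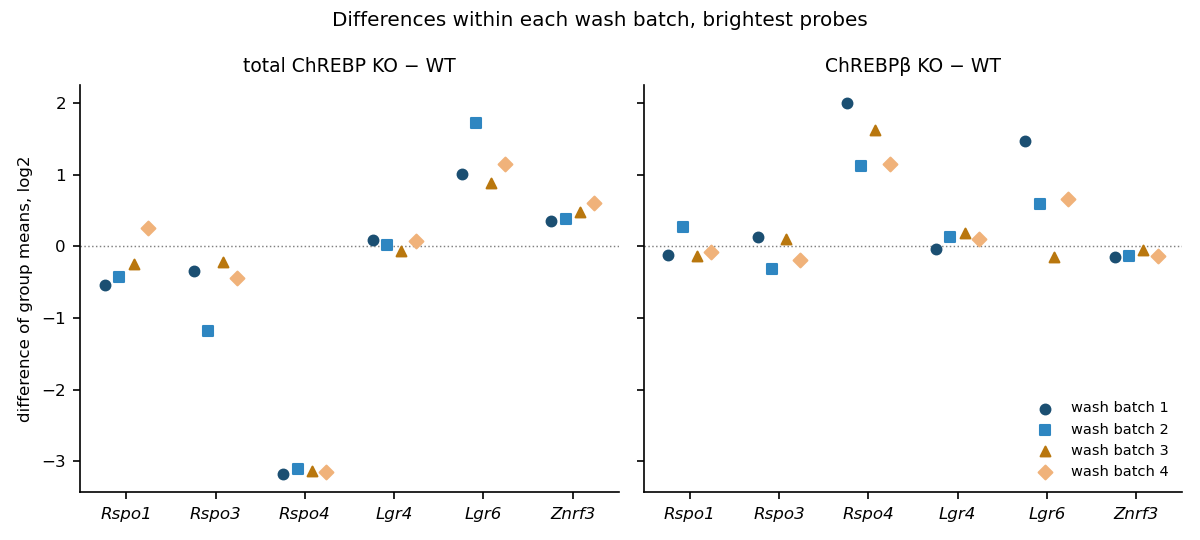
Difference of KO and WT group means (log2, y axis) within each of 4 wash batches (symbols), for the brightest probe of each gene (x axis), in the total line (left) and the ChREBPβ line (right). Lgr6 is below 0 in 1 batch on the right (-0.15). The Rspo4 points on the left are set against arrays at background, so their size and closeness are not measurements of the fall.

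Lgr4 encodes the most widely expressed of the R-spondin receptors. Its brightest probe, A_52_P276727 at chr2:109854007-109854066, ran only from 7.78 to 8.19 over the 32 arrays, and group means lay between 7.95 and 8.07. The log2 difference was 0.04 in total ChREBP KO (95% interval -0.07 to 0.15) and 0.07 in ChREBPβ KO (-0.04 to 0.18), and neither was called. Probe A_52_P278566, whose group means lay between 4.87 and 5.10, disagreed with it, with a difference of 0.20 between total ChREBP KO and WT (limma adjusted p 0.0121) that was lost with slide as a fixed block (limma adjusted p 0.0724), and its deviations within groups did not follow those of A_52_P276727 (r = -0.0595). Another Lgr4 probe, which did not pass the filter, was well above background on 0 of 32 arrays. Lgr5, a stem cell marker of the intestine and other epithelia, had no probe that passed the filter, and its 2 probes were well above background on 1 and 12 of 32 arrays.

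Znrf3 and Rnf43 encode the ubiquitin ligases that R-spondins draw away from Frizzled receptors. On A_65_P09639, the brightest of 3 Znrf3 probes, total-line WT ran from 7.36 through a median of 7.62 to 7.75 and total ChREBP KO from 7.83 through 8.06 to 8.23. These ranges did not overlap, and Znrf3 was higher by 0.47 ± 0.10 (log2, SE; limma adjusted p 0.000206). ChREBPβ-line WT ran from 7.77 through 8.06 to 8.33 and ChREBPβ KO from 7.67 through 8.02 to 8.42, which overlap almost fully, and the difference was 0.00059 (95% interval -0.20 to 0.20). Probe A_66_P136072 was also higher in total ChREBP KO, by 0.33 (limma adjusted p 0.000725). Probe A_52_P234039 was higher by 0.28, given as a description, because it passed the filter only through groups other than total-line WT. It carried the found, positive and well-above-background flags together on 4 of 8 arrays in total-line WT and 6 of 8 in total ChREBP KO. It was well above background on all 32 arrays, and with slide as a fixed block its difference was not called (0.26, limma adjusted p 0.0834). On A_65_P09639 total-line WT was the low group. ChREBPβ-line WT lay 0.48 above it (limma adjusted p 0.00022), at a mean of 8.05 beside 8.04 in total ChREBP KO and 8.05 in ChREBPβ KO. On A_66_P136072 total ChREBP KO was the high group instead, at a mean of 6.60. The means there were 6.28 in total-line WT, 6.38 in ChREBPβ-line WT and 6.38 in ChREBPβ KO. The WT groups differed by 0.11 on that probe, which was not called (limma adjusted p 0.277). Within wash batches the total ChREBP KO difference of A_65_P09639 lay between 0.36 and 0.61. In the same KO arrays 2 of 5 smooth muscle and pericyte markers were higher (mean level 10.52 to 11.10 in WT and 10.76 to 11.26 in KO) and 4 of 4 macrophage markers lower (9.40 to 10.25 and 8.90 to 9.29). Of 6 brown adipocyte markers 3 were higher and 1 lower (15.48 to 15.97 and 15.63 to 16.03). The part of these markers in the Lgr6 and Znrf3 results was not tested. Over the 32 arrays, deviations within groups of the macrophage markers had r = -0.556 with those of Lgr6 and -0.540 with those of Znrf3. Other lists came close to these values. For Lgr6 it was -0.440 with stromal fibroblast and -0.400 with skeletal muscle markers. For Znrf3 it was 0.435 with smooth muscle and pericyte, -0.428 with mesothelium and -0.427 with stromal fibroblast markers.

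Of the 5 genes 1, Znrf3, had KO effects that were called different between the lines on its brightest probe, by -0.47 (limma adjusted p 0.0123), where 12.2% of all genes were called higher and 13.1% lower for that difference. On the other probes it was -0.17 (limma adjusted p 0.325) and -0.33 (limma adjusted p 0.0245). Rnf43 had no probe that passed the filter. A probe of it was well above background on 0 of 32 arrays. The other, A_51_P337101, was well above background on 4 of 8 arrays in total-line WT, 0 of 8 in total ChREBP KO, 7 of 8 in ChREBPβ-line WT and 8 of 8 in ChREBPβ KO, but the scanner software found the spot on 18 of 32 arrays. Without the filter its group means were 4.79 ± 0.25, 4.47 ± 0.17, 5.22 ± 0.36 and 5.41 ± 0.29 (SD, n = 8), and neither KO difference was called (-0.33, limma adjusted p 0.062, in total ChREBP KO and 0.19, limma adjusted p 0.705, in ChREBPβ KO).

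**Figure D3:**
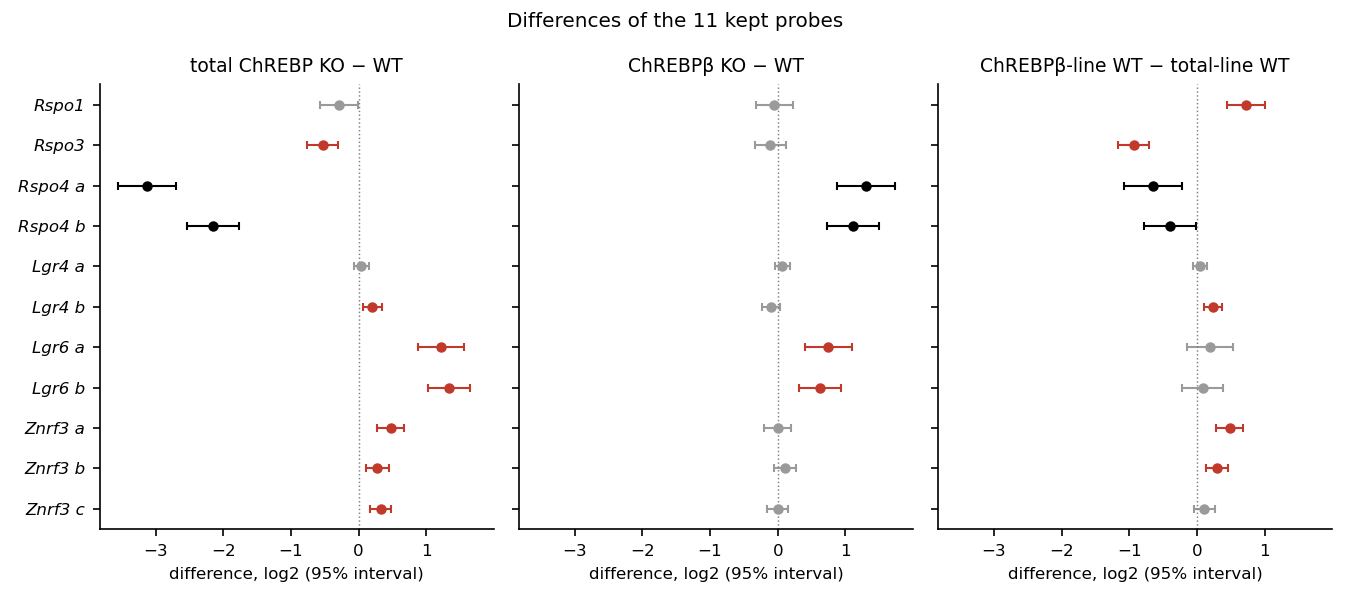
Log2 difference (x axis) with its 95% interval for each of the 11 probes of the family that passed the filter, in 3 comparisons. Letters number the probes of a gene from the brightest (a), red marks an adjusted p under 0.05, grey none, and black marks Rspo4, which was not tested. Both Lgr6 probes lie to the right of 0 in both KO comparisons.

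Among the other ligands, Rspo3, known for its role in blood vessel development, was lower in total ChREBP KO. Its probe A_55_P2163659 at chr10:29172930-29172989 ran from 5.61 through a median of 6.09 to 6.78 in total-line WT and from 5.397 through 5.53 to 5.78 in total ChREBP KO. The ranges overlapped, and the log2 difference was -0.53 ± 0.11 (SE; limma adjusted p 0.000284), with all 8 KO arrays below the WT mean. In the ChREBPβ line, WT ran from 4.92 through 5.20 to 5.31 and KO from 4.76 through 4.98 to 5.38, a difference of -0.11 (95% interval -0.34 to 0.12; limma adjusted p 0.763). Set against each other, the KO effects differed by 0.41, which was not called (limma adjusted p 0.0563). The 4 macrophage markers were also lower in these KO arrays, as given above, as were 3 of 6 of endothelium (10.41 to 10.73 and 10.21 to 10.45) and 2 of 6 of stromal fibroblasts (10.94 to 11.83 and 10.87 to 11.12), and their part in the Rspo3 result was not tested. Within groups Rspo3 had r = 0.509 with the macrophage markers and 0.498 with the stromal fibroblast markers over 32 arrays. Within wash batches the total ChREBP KO difference lay between -1.18 and -0.22. The contrast of the KO effects of Rspo3 was called with wash batch as a fixed block (0.45, limma adjusted p 0.0302), with slide as a random block (0.43, limma adjusted p 0.0407) and without total-line WT replicate 1, 3 or 7, total ChREBP KO replicate 7, ChREBPβ-line WT replicate 1 or ChREBPβ KO replicate 8 (0.44 to 0.48). It was smaller with scaling to the 75th percentile (0.22, limma adjusted p 0.325) and after normexp (0.26, limma adjusted p 0.0568). A second Rspo3 probe, which did not pass the filter, was well above background on 5 total-line WT and 2 total ChREBP KO arrays and on 0 in the ChREBPβ line. Without the filter its difference in total ChREBP KO was -0.24 and was not called (limma adjusted p 0.0955).

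Rspo1 (A_51_P142421, chr4:124686270-124686329) ran from 6.10 through 6.49 to 7.41 in total-line WT and from 5.83 through 6.27 to 6.79 in total ChREBP KO, and the difference of -0.29 was not called (limma adjusted p 0.0868), but was with array weights (-0.32, limma adjusted p 0.0361) and without total-line WT replicate 6 or 7 or total ChREBP KO replicate 7 (-0.36 to -0.35). It was -0.17 without total-line WT replicate 2 (limma adjusted p 0.258). Rspo1 carried the found, positive and well-above-background flags together on 5 of 8 arrays in total-line WT and 7 of 8 in total ChREBP KO. Deviations of Rspo1 within groups had r = 0.507 with those of the macrophage markers over 32 arrays, and 0.361 with those of liver markers. The macrophage markers were lower in these KO arrays, as given above, and their part in the Rspo1 values was not tested. In the ChREBPβ line, WT ran from 7.10 through 7.26 to 7.55 and KO from 6.996 through 7.21 to 7.67, with a difference of -0.05 (95% interval -0.33 to 0.23). Rspo2 was well above background on 0 of 32 arrays on either of its 2 probes. Their group means lay between 4.12 and 4.30, so a level of Rspo2 was not detectable on these arrays.

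The WT groups of the lines also differed in the family. Of the 5 tested genes, Rspo1 and Znrf3 were called higher and Rspo3 lower in ChREBPβ-line WT than in total-line WT on their brightest probes. Of all genes, 24.8% were called higher and 14.1% lower. On A_66_P136072 Znrf3 differed by 0.11, which was not called (limma adjusted p 0.277). On A_52_P234039 it differed by 0.30, given as a description. Rspo1, counted as called above, was higher by 0.73 ± 0.14 (SE), with 8 of 8 arrays above the total-line WT mean but an overlapping range. This is given as a description, because Rspo1 passed the filter only through groups other than total-line WT. It carried the found, positive and well-above-background flags together on 5 of 8 arrays in total-line WT and 6 of 8 in ChREBPβ-line WT. It was well above background on all 32 arrays. Rspo3 was lower by 0.93 ± 0.11 (limma adjusted p 9.05e-08), and its ranges did not overlap (4.92 to 5.31 against 5.61 to 6.78). In the same comparison 8 of 8 skeletal muscle markers, 6 of 6 stromal fibroblast markers (10.16 to 10.64 against 10.94 to 11.83) and 4 of 4 macrophage markers (8.73 to 9.44 against 9.40 to 10.25) were lower, while 5 of 5 smooth muscle and pericyte markers (11.13 to 11.64 against 10.52 to 11.10) and 4 of 6 endothelial markers (10.76 to 11.01 against 10.41 to 10.73) were higher. Of 6 brown adipocyte markers 3 were lower and 1 higher. The part of all these markers in the Rspo1, Rspo3 and Znrf3 differences was not tested, and line and tissue composition cannot be told apart here.

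Within groups the 6 measured genes varied largely apart from each other. Over the 15 pairs of brightest probes, correlations of the deviations from group means ran from -0.471 (Rspo3 with Lgr6) to 0.397 (Rspo4 with Lgr4) over 32 arrays, given as a description. Those of Rspo4 with Lgr6 and with Znrf3 were 0.133 and 0.0595. Probes of Lgr6 followed each other (r = 0.859), and those of Znrf3 did not (-0.0327 to 0.183).

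The rest of the Wnt pathway was taken from a list of 74 genes, of which 62 were tested. Without both isoforms 13 were higher and 13 lower, or 26 of 62 beside 44.1% of all genes called, with a median log2 difference of -0.0357. In ChREBPβ KO 1 was higher and 2 were lower, 3 of 62 beside 2.7% of all genes. The genes named below are those called in ChREBPβ KO and, in each role, the called genes with the highest and the lowest difference in total ChREBP KO.

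Among the 14 Wnt ligands tested, 3 were higher and 2 lower in total ChREBP KO, beside 23.0% and 21.1% of all genes. Wnt2b, counted among the 3, passed the filter only through total ChREBP KO, where it was well above background on 7 of 8 arrays, against 2 of 8 in each other group. Its mean log2 intensity was 5.09 there and 4.57 in total-line WT, and this is given as a description. Of the called ligands Wnt2 had the largest fall, -0.67 ± 0.19 (limma adjusted p 0.0046). Wnt2 was also lower in ChREBPβ-line WT than in total-line WT, with a log2 difference of -1.52 (limma adjusted p 1.79e-07). The part of tissue composition in the Wnt2 result was not tested. Wnt11, a ligand mostly known for signalling without β-catenin, was lower in ChREBPβ KO by 0.41 ± 0.11 (limma adjusted p 0.0386) and was not called in total ChREBP KO (-0.22, limma adjusted p 0.118). The Wnt11 call in ChREBPβ KO was lost in 13 of 44 alternative settings. Porcn, the acyltransferase that prepares Wnt ligands for secretion, was higher in total ChREBP KO by 0.23 (limma adjusted p 0.0144). It was also higher in ChREBPβ-line WT than in total-line WT, by 0.48 (limma adjusted p 8.95e-06).

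Among the receptors, Fzd4 rose most in total ChREBP KO and rose in ChREBPβ KO too. Its mean log2 intensity was 11.93 ± 0.28 (SD, n = 8) in total-line WT, 13.54 ± 0.16 in total ChREBP KO, 12.57 ± 0.24 in ChREBPβ-line WT and 13.20 ± 0.27 in ChREBPβ KO. The differences were 1.61 ± 0.12 (SE; limma adjusted p 5.65e-13) and 0.63 ± 0.12 (limma adjusted p 0.0016), with all 8 KO arrays above the WT mean in either line, and they differed by -0.98 (limma adjusted p 3.66e-05). Fzd4 was picked on these KO differences, so the contrast of the effects is given as a description. With slide as a fixed block the ChREBPβ call was lost (limma adjusted p 0.126). Of 12 Frizzled and Lrp receptors, 4 were higher and 2 lower in total ChREBP KO, beside 23.0% and 21.1% of all genes, with Fzd6 at the low end (-0.31, limma adjusted p 0.0401), a call kept in 30 of 43 alternative settings.

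Of 9 secreted and membrane inhibitors tested, 4 were lower and 0 higher in total ChREBP KO, where 21.1% of all genes were lower and 23.0% higher. All 4 are named because they are few, beyond the rule above. They were Dkk3 (-0.54, limma adjusted p 0.000111), Sfrp1 (-0.21, limma adjusted p 0.0251), Sfrp2 (-0.63, limma adjusted p 0.0166) and Sfrp4 (-0.55, limma adjusted p 0.0379). The latter 3 encode soluble proteins related to Frizzled that bind Wnt ligands. In ChREBPβ KO 0 of the 9 were called. Dkk3 was lower in ChREBPβ-line WT than in total-line WT (-0.49, limma adjusted p 0.000531), while Sfrp1 was not called there (-0.13, limma adjusted p 0.176). Sfrp2 and Sfrp4, which are expressed by stromal cells, were also lower in ChREBPβ-line WT than in total-line WT, with log2 differences of -2.29 and -1.52, next to the lower stromal fibroblast markers given above. In total ChREBP KO 2 of 6 of these markers were lower too (median log2 difference of the 6, -0.285), and their part in the Sfrp2 and Sfrp4 results was not tested.

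Among the cytosolic transducers Gsk3b, a kinase that marks β-catenin for degradation, was lower in both KO lines, with differences of -0.50 ± 0.08 without both isoforms (limma adjusted p 6.29e-06) and -0.45 ± 0.08 without the β isoform (limma adjusted p 0.00126). These effects differed by 0.05 (limma adjusted p 0.805). The ChREBPβ call was lost with slide as a fixed block (limma adjusted p 0.101). Dvl1, which relays the signal from Frizzled, was higher in total ChREBP KO by 0.25 (limma adjusted p 0.000625). Of the nuclear factors, the β-catenin cofactor genes Bcl9l and Bcl9 moved apart in total ChREBP KO, by 0.66 (limma adjusted p 0.000223) and -0.44 (limma adjusted p 2.86e-05).

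Feedback targets, whose transcription is known to follow β-catenin signalling, did not share a direction. Of 6 tested, Apcdd1 was higher in total ChREBP KO by 1.63 ± 0.24 (limma adjusted p 1.1e-06) and Nkd1 had a difference of -1.60 ± 0.19 (limma adjusted p 3.34e-08), and the other 4 tested were not called. Axin2, the most widely used readout of the pathway, had mean log2 intensities of 8.31 ± 0.20 (SD, n = 8) in total-line WT, 7.95 ± 0.34 in total ChREBP KO, 8.51 ± 0.47 in ChREBPβ-line WT and 9.12 ± 0.47 in ChREBPβ KO. Neither KO difference was called (-0.36, limma adjusted p 0.111; 0.61, limma adjusted p 0.0672), while the difference between them was (0.98, limma adjusted p 0.00555). The call changed in 3 of 44 alternative settings in ChREBPβ KO (limma adjusted p 0.00378 to 0.455 over all of them) and in 1 of 44 in total ChREBP KO (0.0281 to 0.22). Axin2 is named after its values were seen. Sdc4, a syndecan that serves as a co-receptor for R-spondins, was higher in total ChREBP KO by 1.21 ± 0.13 (limma adjusted p 2.66e-09). Its difference of 0.29 in ChREBPβ KO was not called (limma adjusted p 0.279). Sdc4 was lower in ChREBPβ-line WT than in total-line WT, with a log2 difference of -0.88 (limma adjusted p 2.22e-06).

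**Figure D4:**
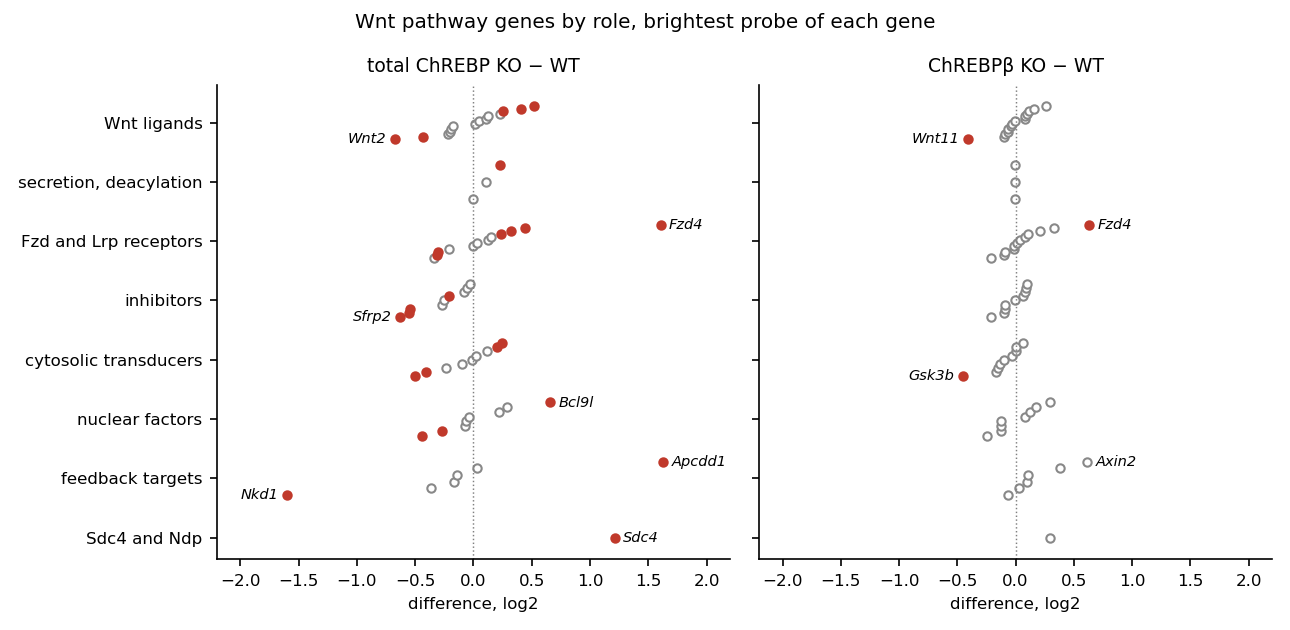
Log2 difference (x axis) of the brightest probe of the 62 tested Wnt pathway genes, arranged by role (y axis), in total ChREBP KO (left) and ChREBPβ KO (right). Red points have a limma adjusted p under 0.05 and open points do not. The left panel holds 26 red points on both sides of 0 and the right panel 3.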

How the data were processed

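Per the file headers, intensities were extracted by Agilent Feature Extraction 10.10.1.1 (probe coordinates of build mm9), and the median intensity per spot was used as deposited. A second deposited file holds log2 values that the authors had filtered, quantile normalized and condensed to 1 value per probe. Here their filter was applied to the scanner values: a spot had to carry the found, positive and well-above-background flags on 26 or more of 32 arrays or on 6 or more of a group. Of 59305 spots 39985 passed. They were quantile normalized, put on the log2 scale and averaged by the median over spots of a probe (37306 probes). The result differed from the deposited table by 0.0113 on average. limma 3.58.1 (R 4.3.3) was fitted over all arrays with 4 group means, and two-sided p values were Benjamini-Hochberg adjusted over all probes. A gene was called on its brightest probe (highest mean over all arrays) at an adjusted p under 0.05. Agilent's processed intensity, other normalizations, filters and blocks, and leaving out each array, were the alternatives. The code was tested on simulated data. Arrays have no depth, so their number limits the precision.

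Named genes were all family members, Mlxipl, the 5 genes most like Rspo4 (1 of them is not reported here), and the Wnt genes chosen as stated in the report. The members and lists were chosen with earlier results of these data known.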

Additional observations from a re-analysis of the deposited data

Results flagged for a closer look

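The effects of the KO lines differed by the test of the difference itself for several genes, given as the ChREBPβ KO effect minus the total ChREBP KO effect on the log2 scale. In the R-spondin family these were Znrf3 (-0.472 on A_65_P09639, limma adjusted p 0.0123, and -0.329 on A_66_P136072, limma adjusted p 0.0245), Lgr6 on A_52_P616580 (-0.709, limma adjusted p 0.0141) and Lgr4 on its dimmer probe A_52_P278566 (-0.302, limma adjusted p 0.0168). The brightest Lgr4 probe, A_52_P276727, gave 0.028 (limma adjusted p 0.836). The call on the dimmer Lgr4 probe was lost with slide as a fixed block (-0.243, limma adjusted p 0.105). Of the 62 Wnt pathway genes tested, 13 were called for this difference, beside 25.2% of all genes. Those named here were picked mostly on their total ChREBP KO difference, which this contrast subtracts, and Axin2 after its values were seen. Their calls are in part built in by that choice and are given as a description. Among the named Wnt pathway genes with a larger value in ChREBPβ KO were Nkd1 (1.70, limma adjusted p 1.56e-05), Axin2 (0.977, limma adjusted p 0.00555), Fzd6 (0.523, limma adjusted p 0.0266) and Bcl9 (0.520, limma adjusted p 0.000701). Those with a smaller value were Apcdd1 (-1.25, limma adjusted p 0.00587), Fzd4 (-0.977, limma adjusted p 3.66e-05), Sdc4 (-0.920, limma adjusted p 0.000288), Dvl1 (-0.348, limma adjusted p 0.00165) and Wnt2b (-0.435), whose probe passed the filter only through total ChREBP KO and whose call was kept in 39 of 42 alternative settings. The calls of Fzd6 and Bcl9 were kept in 40 of 42 settings (limma adjusted p up to 0.0889) and in 42 of 43 (up to 0.0622). Called as well, but not picked by the rule, were Dkk3 (0.622), Csnk1a1 (0.370), Fzd1 (0.315) and Gsk3a (-0.357).

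Single arrays lay apart from the other 7 of their group in 4 of 104 groups examined, where chance flags about 1 in 20. Each was at the high end: Rspo4 in total ChREBP KO replicate 6 (4.625, next 4.449, not well above background), Nkd1 in total ChREBP KO replicate 1 (6.826, next 6.436), Axin2 in ChREBPβ-line WT replicate 5 (9.59, next 8.594) and Wnt2b in ChREBPβ KO replicate 3 (5.283, next 4.763).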

How the results depend on the processing

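Of the counts of family genes called, that in total ChREBP KO (3) was 1 at a fold of at least 1.5, that in ChREBPβ KO (1) was 0 when slide was a fixed block, and that between the WT groups (3) was 1 under the filter that asks for all 32 arrays, where fewer genes were tested. The count for the difference between the KO effects (1) was 3 with wash batch as a fixed block, 2 with slide as a random block, 0 at a fold of at least 1.5 and 3 when any probe of a gene was taken. Of the Wnt pathway genes, 7 in place of 26 were called in total ChREBP KO and 1 in place of 3 in ChREBPβ KO at a fold of at least 1.5, and 0 in ChREBPβ KO with slide as a fixed block. Apart from the fold and the smaller filter, the cause was not tested. Leaving out each array in turn gave 3 to 4 family genes in total ChREBP KO, 1 in ChREBPβ KO, 1 to 2 for the difference (2 with Rspo3 added, without the arrays named in the report), 3 between the WT groups, 23 to 28 Wnt genes in total ChREBP KO and 2 to 5 in ChREBPβ KO (5 without ChREBPβ-line WT replicate 5).

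Values that changed sign were uncalled and near 0. In ChREBPβ KO, Rspo1 (-0.05) was 0.028 with wash batch and 0.23 with slide as a fixed block. Znrf3 on A_65_P09639 (0.00059) was -0.00510 with scaling to the 75th percentile, -0.000447 in the deposited table, -0.00530 under the filter that asks for all arrays and -0.095 with wash batch as a fixed block. Znrf3 on A_66_P136072 (-0.00090) was 0.024 with Agilent's processed intensity, 0.0060 after normexp, 0.022 with wash batch, 0.000124 with a fixed slide block and 0.0142 with array weights. Without single arrays these probes ranged from -0.052 to 0.055 and from -0.042 to 0.042, Lgr4 on A_52_P276727 from -0.0039 to 0.050 for the difference between KO effects, and Lgr6 on A_52_P616580 from -0.015 to 0.14 between the WT groups.

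Replicate numbers recur in all groups, and nothing in the labels ties them to a shared unit. Deviations of same-numbered arrays correlated between -0.305 and 0.0802 in the total line, over 0.1 in 0 of 8 pairs, and between -0.196 and 0.532 in the ChREBPβ line, over 0.1 in 6 of 8, so pairing was not established in either line, and a shared unit in part of the ChREBPβ line was not tested. With the replicate block, family counts were 3, 1 and 1 in total ChREBP KO, ChREBPβ KO and the difference, and 28 and 3 Wnt genes were called. The difference of Znrf3 on A_66_P136072 (-0.33) then had a limma adjusted p of 0.0535. The WT groups could not be compared under that block. Probes near background limit Rspo2, Lgr5 and Rnf43.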
